A study of Homo sapiens with 20 samples.

Results

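Cytosolic ribosomal protein genes were followed across Rh30 and Rh41, 2 human alveolar rhabdomyosarcoma cell lines in which histone demethylases of the KDM4 family were knocked down or inhibited. Genes were taken by symbol, as RPL, RPLP or RPS followed by a number, with RPSA added and the Y-linked copies left out. This gave 52 of the 17687 genes measured, each by 1 probe set. The probe set of RPL21 has an identifier of another chromosome than the gene's. RPL21 is kept in all counts and medians, and what its probe set reads was not tested. Of these, 26 encode canonical proteins of the large ribosomal subunit, 19 encode canonical proteins of the small subunit, and 7 are paralogs named as "like" genes (RPL3L, RPL7L1, RPL10L, RPL22L1, RPL26L1, RPL39L and RPS27L). Ribosomal protein genes that the probe set annotation does not name, among them RPLP0, RPLP2, RPL3, RPL5, RPL10, RPL39 and RPSA, were not analysed here.

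The 20 arrays form 8 groups. Rh30 cells carried a control short hairpin RNA or a hairpin against KDM4B for 72 h (shControl and shKDM4B, 2 arrays each), or received a control small interfering RNA or an siRNA against KDM4C for 72 h (siControl and siKDM4C, 2 each). Both lines were also treated for 48 h, either with QC6352, a KDM4 inhibitor, at 200 nM or with DMSO, its vehicle (3 arrays per line and treatment). The labels call the arrays of a group biological replicates, so p values measure the spread between such replicates. The submitters' sample names contradict the titles of 10 Rh30 arrays (all those of siRNA, DMSO and QC6352). Groups here follow the titles, except that siKDM4C replicate 2, titled as a hairpin against KDM4C, was placed by its source name. What the sample names give instead is stated beside the main results.

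A ribosome is built from ribosomal RNA and a fixed set of proteins, so cells make these proteins in matched amounts and break down those left unassembled. Most of their mRNAs begin with a C followed by a run of pyrimidines, the 5′ terminal oligopyrimidine (TOP) motif, through which the kinase mTOR and the RNA-binding protein LARP1 control their translation. Several have paralogs: RPL3L is known from heart and skeletal muscle, RPL10L and RPL39L from testis, and RPS27L as a gene induced by p53. KDM4 enzymes remove methyl groups from lysine residues of histone H3.

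The start regions differ between canonical members and paralogs. To show it, the sequences of 10 genes are given: members with main changes, and RPL22 and RPL26 as partners of paralogs. Each is 15 bases before and 15 from the start site annotated by RefSeq (GRCh38.p14), 5′ to 3′ on the gene's strand, with capitals for the pyrimidine run that covers the start.
RPS6 (chr9:19380222-19380251, minus strand): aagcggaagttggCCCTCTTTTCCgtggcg
RPL24 (chr3:101686704-101686733, minus strand): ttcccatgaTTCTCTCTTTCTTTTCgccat
RPS14 (chr5:150449725-150449754, minus strand): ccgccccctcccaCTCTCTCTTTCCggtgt
RPL10A (chr6:35468386-35468415, plus strand): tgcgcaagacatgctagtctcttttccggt
RPS12 (chr6:132814554-132814583, plus strand): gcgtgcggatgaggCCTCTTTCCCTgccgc
RPL22 (chr1:6199581-6199610, minus strand): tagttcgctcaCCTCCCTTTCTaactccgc
RPL22L1 (chr3:170870181-170870210, minus strand): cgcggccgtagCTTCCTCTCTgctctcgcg
RPL26 (chr17:8383179-8383208, minus strand): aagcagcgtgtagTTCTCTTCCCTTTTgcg
RPL26L1 (chr5:172958714-172958743, plus strand): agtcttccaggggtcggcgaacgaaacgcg
RPS27L (chr15:63157463-63157492, minus strand): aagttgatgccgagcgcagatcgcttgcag
RefSeq windows were at hand for 46 of the 52 members, 41 canonical and 5 paralogs. A C at an annotated start followed by at least 4 pyrimidines was present in 30 of 41 canonical genes (73.2%), in RPL22L1 as 1 of 5 paralogs, and in 6.24% of 15843 protein-coding genes. RPL10A has no run over its start, and its run begins within 10 bases of it. Such a nearby run was present in 90.2% of the canonical genes and 40.1% of all protein-coding genes.

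Every member's signal is a log2 value as deposited. The mean signal of the canonical members over all arrays ran from 10.10 to 13.10, against background probe sets with array medians of 3.64 to 4.01. The median over the whole table was 6.72 to 6.75 in the siRNA arrays, 6.95 to 6.99 in the other Rh30 arrays and 7.22 to 7.25 in Rh41. By sample names QC6352 in Rh30 would join arrays with medians of 6.72, 6.97 and 6.99, against 6.95, 6.99 and 6.95 by titles. RPL10A would be at 10.87 and 9.24 in siControl by sample names, against 10.41 and 10.48 by titles. Which labels are right was not tested. All 10 rhabdomyosarcoma markers listed, among them MYOD1, MYOG and DES, were measured above background. KDM4B was at 6.01 and 6.15 with its hairpin against 6.74 and 7.30 (log2 fold change -0.94, SE 0.23, limma adjusted p = 0.012). KDM4C was at 6.25 and 6.32 in the siKDM4C arrays against 6.48 and 6.54, and this difference did not pass the test (-0.23, SE 0.19, limma adjusted p = 0.651).

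**Figure D1:**
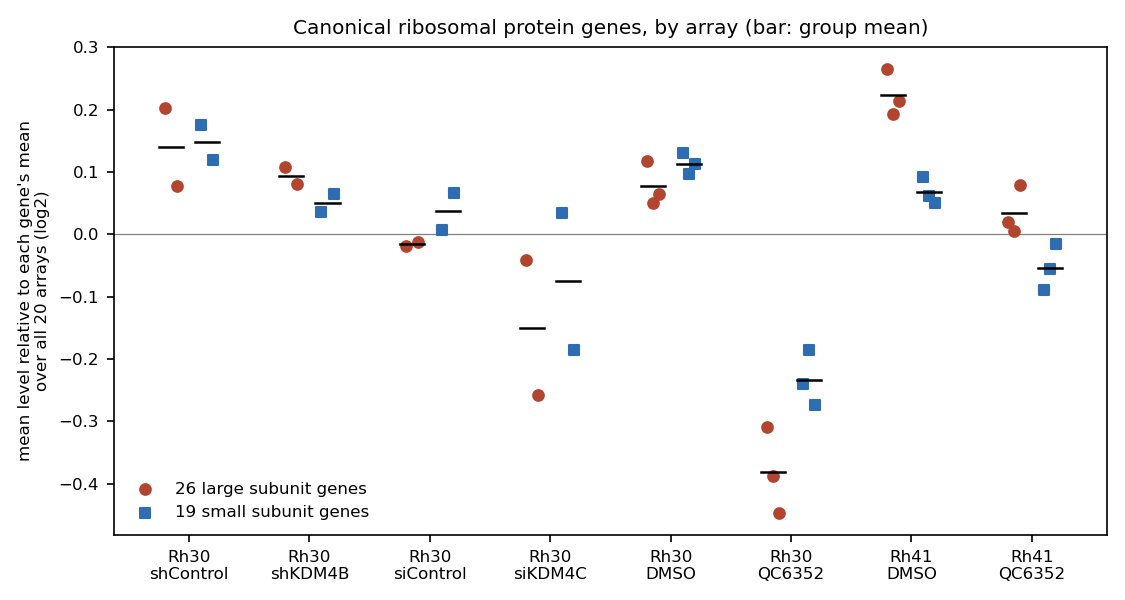
Mean log2 level of the 26 large subunit genes (circles) and the 19 small subunit genes (squares) in each array, relative to each gene's mean over all 20 arrays, by group; bars are group means. The 3 Rh30 arrays with QC6352 lie lowest for the large subunit, at -0.31 to -0.45, and siKDM4C replicate 2 stands apart from replicate 1.

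In Rh30 cells ribosomal protein mRNAs were broadly lower with QC6352. Of the 52 members 33 fell and 0 rose (limma, adjusted p under 0.05 over all genes; 36 members had an unadjusted p under 0.05 in either direction). Over all genes 16.5% fell and 19.9% rose. The median log2 fold change was -0.35 over the members and 0.05 over all genes. By sample names 0 members passed in either direction (3 at an unadjusted p under 0.05), beside 0.503% of all genes, and the large subunit median was 0.021. In extracts of whole cultures fewer cells of a kind and less RNA per cell cannot be told apart. The rhabdomyosarcoma markers moved with these changes: 6 of 10 fell and 1 rose, and their summed signal was 13.44 to 13.49 with QC6352 against 14.06 to 14.09 with DMSO. Of 5 blood markers measured 2 rose, CD68 by 3.62 and CD3E by 0.50, and PTPRC, CD14 and HBB were not called. The summed signal was 10.44 to 10.55 against 7.87 to 8.01, and most of its rise came from CD68, with means of 10.33 against 6.71. CD3E had means of 5.09 against 4.58. PTPRC, a general marker of white blood cells, was near background at 3.41 to 4.22 over all arrays. Of 6 fibroblast markers THY1 and COL1A1 rose, and the summed signal was 10.76 to 10.97 against 10.16 to 10.27. Of 6 epithelial markers KRT8 rose by 0.46, with a summed signal of 9.21 to 9.39 against 8.95 to 9.07. Of 4 endothelial markers PECAM1 fell by 1.03, with a summed signal of 8.24 to 8.28 against 8.42 to 8.62. The part of these lists in the result was not tested.

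Both subunits took part. In the large subunit 18 of 26 canonical genes fell, with a median of -0.42, and in the small subunit 12 of 19 fell, with a median of -0.34. Of the 7 paralogs 3 fell. The mean of the large subunit genes, relative to each gene's own mean over the series, was -0.31, -0.39 and -0.45 in the QC6352 arrays and 0.12, 0.05 and 0.06 in the DMSO arrays. That of the small subunit was -0.24, -0.19 and -0.27 against 0.13, 0.10 and 0.11. The arrays of the groups did not overlap in either subunit.

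RPL10A, a large subunit protein of the stalk beside the exit site for transfer RNA, had the largest fall. Its signal was 9.24, 9.53 and 8.86 with QC6352 and 10.84, 10.78 and 10.87 with DMSO, so that the arrays were far apart, a 3.08-fold lower level (log2 fold change -1.62, SE 0.12, limma adjusted p = 3.77e-09). RPL24, which lies at the face between the subunits, was at 10.46, 10.41 and 10.39 against 11.71, 11.57 and 11.62. All its treated arrays were lower and it fell 2.32-fold (-1.21, SE 0.08, limma adjusted p = 1.64e-09). In the small subunit RPS14, a protein of the platform where mRNA leaves, was at 9.66, 9.90 and 9.74 against 10.84, 10.78 and 10.79. It fell 2.05-fold with no overlap of arrays (-1.03, SE 0.11, limma adjusted p = 3.76e-07). RPS6, the protein that S6 kinases phosphorylate downstream of mTOR, was at 10.92, 11.12 and 10.94 against 12.05, 11.95 and 11.97. It was 1.99-fold lower, again without overlap (-0.99, SE 0.09, limma adjusted p = 4.41e-08). By sample names these 4 genes stood at 0.21, 0.09, -0.05 and 0.16, none past the threshold.

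By position in the ribosome the falls were uneven. Both measured proteins of the stalk that recruits translation factors missed the threshold, RPLP1 at 0.02 (SE 0.10) and RPL12 at 0.12 (SE 0.08). RPL11, which with 5S ribosomal RNA can bind MDM2, fell by 0.26. Among 6 measured proteins around the exit tunnel for the new peptide 3 fell, RPL19 by 0.59, RPL31 by 0.54 and RPL26 by 0.24, while RPL22 was at -0.08, RPL38 at -0.18 and RPL35 at 0.09. RPS23, at the decoding centre, fell by 0.34, and RPS15, whose tail reaches it, was at -0.06. Around the mRNA exit RPS21 and RPS28 each fell by 0.31 and RPS26 was at 0.01. The genes named here that missed the threshold all had a mean signal of 12 log2 or more over the arrays. RPL11, RPS23 and RPS21, which fell, were that bright too. Position and signal level were not separated, and these differences between positions were not tested.

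**Figure D2:**
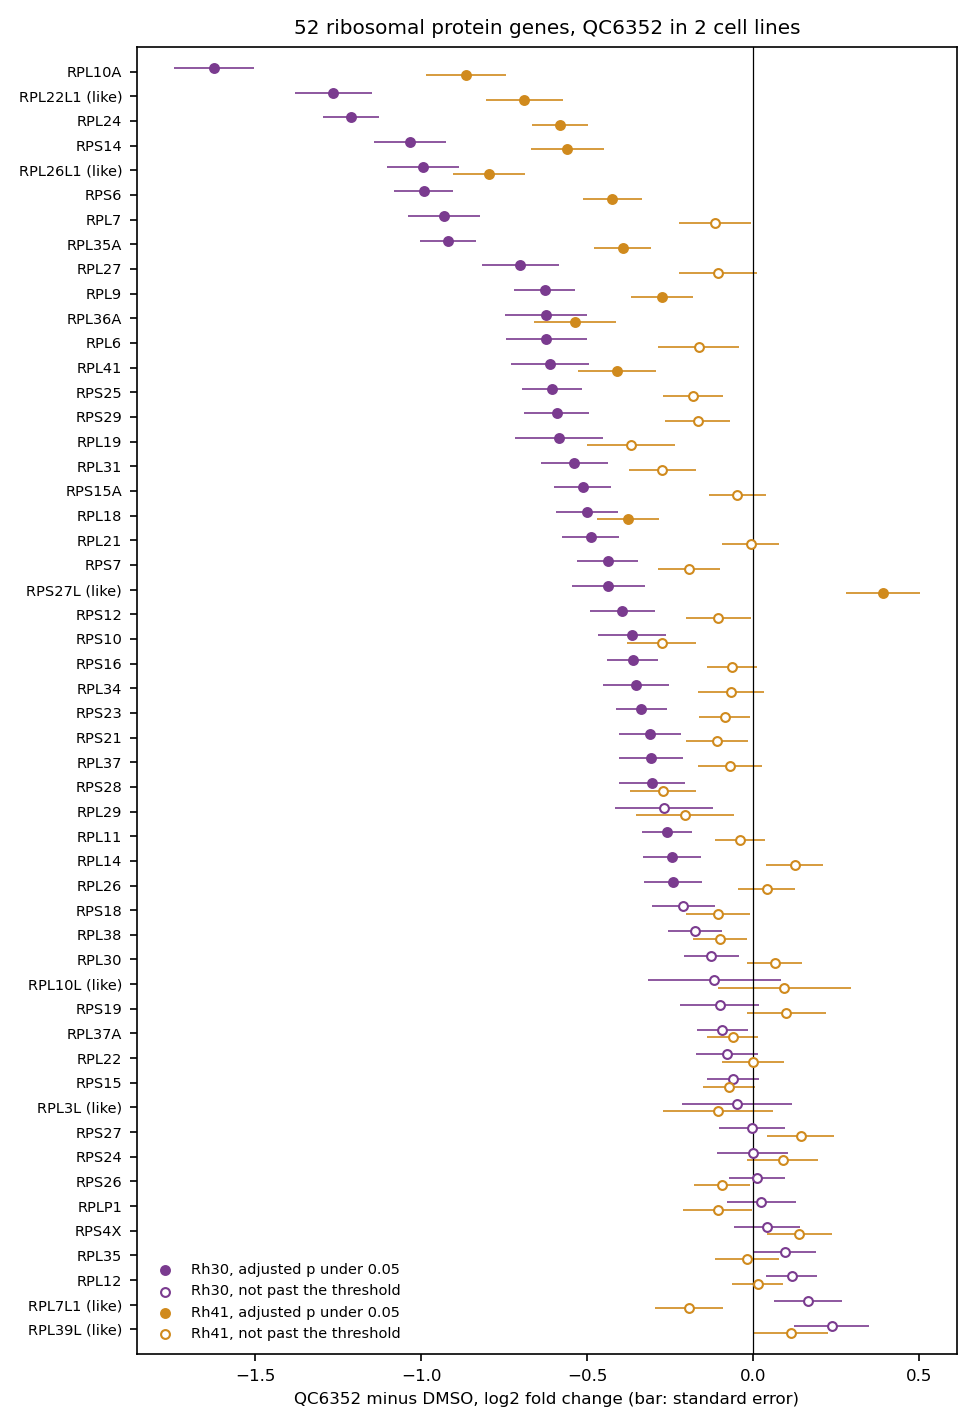
Log2 fold change of each of the 52 members with QC6352 against DMSO in Rh30 (purple) and Rh41 (orange), ordered by the Rh30 change; bars are standard errors of the limma fit and filled points have an adjusted p under 0.05. Of the 52 members 33 are filled on the lower side in Rh30 and 11 in Rh41, and RPS27L is filled on opposite sides.

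The size of the fall went with the level of the signal. Among canonical genes with a mean signal under 12 log2, 22 of 27 fell with a median of -0.54, and among those at 12 or more 8 of 18 fell with a median of -0.13. Of the other genes at 12 or more 11 of 61 fell, and of those from 10 to 12 389 of 1258 fell (30.9%). Across the 45 canonical genes mean signal and log2 fold change had a Pearson r of 0.638 (Spearman 0.688) in Rh30 and 0.540 (0.530) in Rh41. The genes share the same arrays and are no independent replicates. The mean signal also includes the QC6352 arrays, so a deeper fall itself lowers it and adds to this relation. Whether bright probe sets are compressed on this array was not tested.

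**Figure D3:**
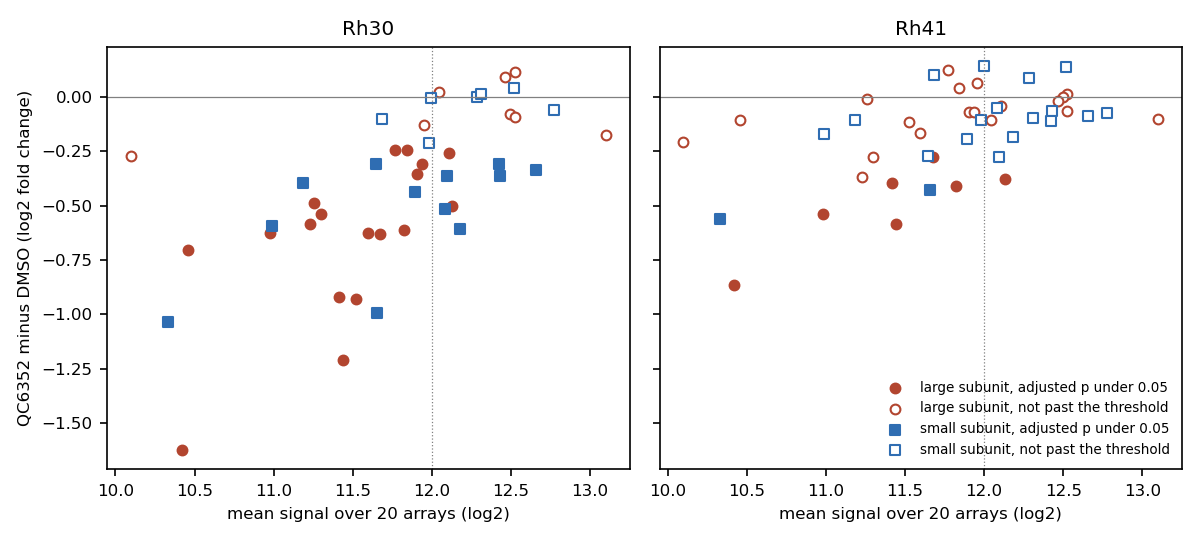
Log2 fold change with QC6352 against mean log2 signal over 20 arrays for the 45 canonical members, in Rh30 (left) and Rh41 (right); circles are large subunit and squares small subunit genes, filled where the limma adjusted p is under 0.05. Under 12 log2 (dotted line) 22 of 27 are filled in Rh30 and 8 of 27 in Rh41, and at or above it 8 of 18 and 1 of 18.

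Genes with and without the pyrimidine run at the start were both among those that fell. Of 30 canonical genes with the C and 4 pyrimidines at an annotated start 19 fell in Rh30, with a median of -0.32, and of 11 without it 8 fell, with a median of -0.59. In Rh41 the numbers were 7 of 30 and 2 of 11. The ETS core CCGGAAG, searched on both strands from 250 bases before to 50 after the start, was in 34.1% of canonical genes and 16.5% of all protein-coding genes. Of the 14 canonical genes with it 11 fell in Rh30, and of the 27 without it 16 fell. AAGATGG, the core bound by YY1, was in 12.2% of canonical and 7.9% of all genes, CACGTG in 7.32% and 10.9%, and TATAAA in 2.44% and 12.4%.

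In Rh41 cells the same drug and dose changed fewer members. Of 52, 11 fell and 1, RPS27L, rose, while 8.8% of all genes fell and 10.9% rose. The median was -0.11 over the members and 0.02 over all genes. In the large subunit 7 of 26 fell and in the small subunit 2 of 19, both with medians of -0.11. All 11 that fell in Rh41 also fell in Rh30, which is 33.3% of the 33. Across the 45 canonical genes the changes in the 2 lines, which share no arrays, had a Pearson r of 0.827 (Spearman 0.772). CD68 rose by 1.31 here too, as 1 of 5 blood markers, whose summed signal was 8.52 to 8.78 against 7.99 to 8.15. Of the rhabdomyosarcoma markers 2 fell and 1 rose, with summed signals of 14.04 to 14.14 against 14.00 to 14.09. Their part in the result was not tested.

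RPL10A again fell most. Its signal was 10.14, 10.23 and 10.21 with QC6352 against 11.06, 11.08 and 11.03 with DMSO, 1.82-fold lower without overlap (-0.86, SE 0.12, limma adjusted p = 4.08e-05). RPL24 was at 11.46, 11.38 and 11.52 against 12.03, 12.02 and 12.06, a fall of 0.58. RPS14 was at 9.57, 9.75 and 9.63 against 10.36, 10.10 and 10.17, a fall of 0.56. In RPL24 and RPS14 too, every treated array lay below every DMSO array. RPS6 fell by 0.43 (SE 0.09, limma adjusted p = 0.00191) and RPL36A by 0.54 (SE 0.12, limma adjusted p = 0.00394). RPL35A fell by 0.39 and RPL18 by 0.38.

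The difference between the lines was tested as the Rh41 change minus the Rh30 change. It was positive and past the threshold for 14 members and negative for 0 (limma; 21 members had an unadjusted p under 0.05), beside 10.5% and 9.45% of all genes. All 14, which are 12 canonical genes, RPL22L1 and RPS27L, fell in Rh30. In Rh41 RPS27L rose, and RPL14, at -0.25 in Rh30, was at 0.12 (SE 0.09) and not past the threshold. The median difference was 0.23 in the large subunit, 0.20 in the small subunit and -0.03 over all genes. RPL7 showed the largest difference among canonical genes. It was at 10.73, 10.59 and 10.40 with QC6352 in Rh30 against 11.61, 11.42 and 11.49, and at 12.14, 12.01 and 12.11 in Rh41 against 12.28, 12.09 and 12.23. The Rh30 groups were apart and the Rh41 groups overlapped, a difference of 0.82 (SE 0.15, limma adjusted p = 0.000765). RPL10A differed by 0.76, RPL24 by 0.63, RPL27 by 0.60 and RPS6 by 0.57. By sample names 0 members differed between lines (6 at an unadjusted p under 0.05), beside 4.31% of all genes. The sign was then reversed for 11 of the 14, among them RPL7 (-0.18), RPL10A (-1.07), RPL24 (-0.67), RPL27 (-0.18) and RPS6 (-0.59), and not for RPS27L, RPL14 and RPS29.

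**Figure D4:**
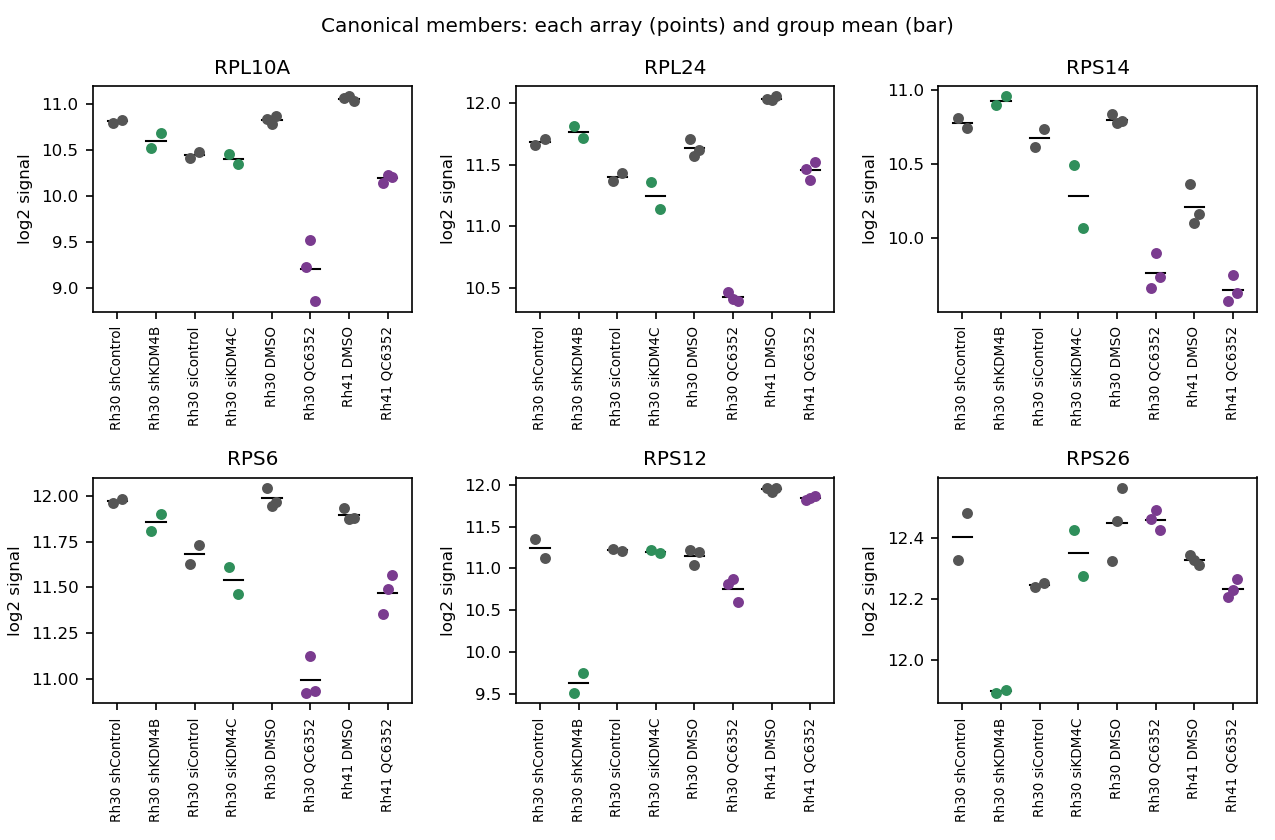
Log2 signal of 6 canonical members in each array (points) with group means (bars), each panel on its own axis. RPL10A, RPL24, RPS14 and RPS6 are lower with QC6352 in both lines, while RPS12 and RPS26 are lowest in the 2 shKDM4B arrays.

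Of the like paralogs RPL22L1 and RPL26L1 fell with QC6352 in both lines, and RPS27L fell in Rh30 and rose in Rh41. RPL22L1, the paralog of RPL22, was at 6.59, 6.47 and 6.37 with QC6352 in Rh30 against 7.72, 7.76 and 7.75 with DMSO, 2.41-fold lower (-1.27, SE 0.12, limma adjusted p = 5.99e-08). In Rh41 it was at 8.60, 8.71 and 8.62 against 9.39, 9.26 and 9.35, 1.61-fold lower (-0.69, SE 0.12, limma adjusted p = 0.000277). Treated and control arrays were apart in both lines, and the fall was deeper in Rh30 (difference 0.58, SE 0.16, limma adjusted p = 0.0176). By sample names its Rh30 value was 0.17 and the difference -0.86, neither past the threshold. Its partner RPL22 was at -0.08 (SE 0.09) in Rh30 and -0.00 (SE 0.09) in Rh41. RPL26L1, which differs from RPL26 at few residues, was at 7.84, 7.92 and 7.97 against 8.89, 8.81 and 9.02 in Rh30 and at 7.86, 8.06 and 8.19 against 8.89, 8.94 and 8.67 in Rh41. It fell 1.99-fold and 1.74-fold without overlap of arrays (limma adjusted p = 5.59e-07 and 3.04e-05). By sample names its Rh30 value was -0.16 and not past the threshold. RPL26 fell by 0.24 in Rh30 and was at 0.04 in Rh41.

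RPS27L was the member with calls in opposite directions. In Rh30 it was at 8.44, 8.11 and 8.09 with QC6352 against 8.74, 8.62 and 8.59 with DMSO (-0.44, SE 0.11, limma adjusted p = 0.004). In Rh41 it was at 9.36, 9.53 and 9.44 against 9.09, 8.98 and 9.08 (0.39, SE 0.11, limma adjusted p = 0.0174). The groups did not overlap in either line, and the responses differed by 0.83 (SE 0.16, limma adjusted p = 0.000874). The rise in Rh41 missed the threshold without DMSO replicate 2 (0.36) or without QC6352 replicate 2 (0.35), and by sample names the Rh30 value was 0.10 and the difference 0.29, neither past the threshold. Its partner RPS27 was at -0.00 (SE 0.10) in Rh30 and 0.14 (SE 0.10) in Rh41. Of 10 measured genes of a p53 list 7 rose in Rh30 and 4 in Rh41 (0 fell in either line). Over all genes 19.9% rose in Rh30 and 10.9% in Rh41. In Rh30 SESN2 was at 1.37 and CDKN1A at 1.23, and in Rh41 PLK2 was at 1.43 and CDKN1A at 0.88.

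RPL7L1, a nucleolar protein of large subunit assembly, was at 9.11, 9.30 and 8.91 against 8.80, 8.93 and 9.09 in Rh30 (0.16, SE 0.10), and at 9.19, 9.20 and 9.35 against 9.40, 9.49 and 9.42 in Rh41 (-0.19, SE 0.10). Neither change passed the test, and the Rh30 groups overlapped. The paralog-minus-partner difference within each array was compared for the 4 pairs measured, in 4 comparisons. With DMSO in Rh30 its mean ran from -4.68 (RPL22L1) to -2.57 (RPL7L1), so the paralogs had the dimmer signal. The part of signal level in the changes of this difference was not tested. In Rh30 with QC6352 RPL7L1 moved by 1.10 relative to RPL7, RPL22L1 by -1.19 relative to RPL22, RPL26L1 by -0.75 relative to RPL26 and RPS27L by -0.43 relative to RPS27. By sample names these values were -0.042, -0.014, -0.17 and 0.21. In Rh41 they were -0.08, -0.69, -0.84 and 0.25. With 3 arrays against 3 the exact two-sided permutation test cannot go below 0.1, and this value was reached by all but RPL7L1 in Rh41 (exact p = 0.5). None passed after adjustment over the 16 tests (lowest adjusted p = 0.229).

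The other 3 paralogs have no measured partner. RPL3L lay between 7.02 and 7.84 and RPL10L between 4.88 and 5.87 in all 20 arrays, with overlapping groups and no call in any comparison. RPL39L differed by line: it was at 6.36, 6.63 and 6.43 in Rh30 with DMSO and at 3.16, 3.11 and 3.46 in Rh41, where all 6 arrays were at or below the background median. Set against that background it was at least 5.75-fold higher in Rh30 with DMSO, and at least 7.13-fold higher with QC6352 (6.77, 6.61 and 6.74 against 3.49, 3.36 and 3.22). QC6352 left it at 0.24 (SE 0.11, limma adjusted p = 0.114) in Rh30.

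**Figure D5:**
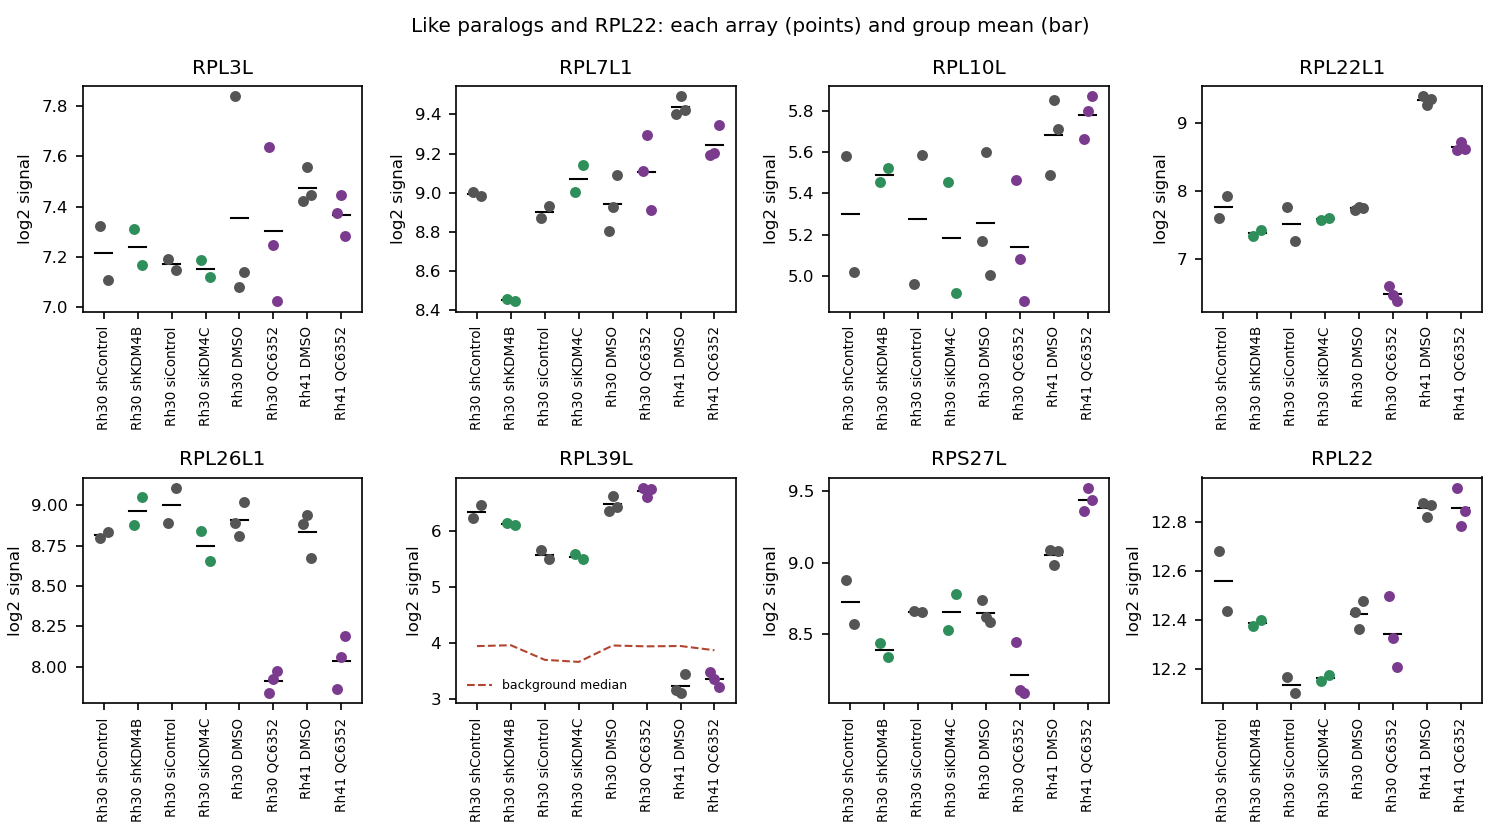
Log2 signal of the 7 like paralogs and of RPL22 in each array (points) with group means (bars), each panel on its own axis; the dashed line for RPL39L is the background median. RPL22L1 and RPL26L1 are lower with QC6352 in both lines, RPS27L lower in Rh30 and higher in Rh41, and RPL39L is at background in the 6 Rh41 arrays.

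With DMSO alone the lines differed in several members. On the deposited values 16 members were higher and 7 lower in Rh41, beside 40.7% and 16.8% of all genes. The median of all genes was itself shifted by 0.19. When each array was centred on its median this shift became -0.06, and 7 members were higher and 21 lower. Of all genes called, 70.7% were higher as deposited, 45.9% after centring and 49.1% after quantile normalization, where 17 members were higher and 9 lower. Only members called the same way as deposited and after centring are therefore described.

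RPL22L1 was at 9.39, 9.26 and 9.35 in Rh41 against 7.72, 7.76 and 7.75 in Rh30, 1.59 higher (SE 0.12, limma adjusted p = 1.02e-09), or 1.34 higher after centring. RPS12, of the small subunit head, was at 11.96, 11.91 and 11.96 against 11.22, 11.04 and 11.20, and was 0.79 higher (0.54 centred). RPL31 was 0.79 higher (0.53), RPL7 0.69 (0.44), RPS24 0.52 (0.26), RPS25 0.50 (0.24) and RPL7L1 0.50 (0.24, and not past the threshold after quantile normalization). In the other direction RPS28 was at 11.26, 11.26 and 11.19 in Rh41 against 11.94, 12.02 and 11.92, a log2 fold change of -0.72 (-0.98 centred). RPS14 was at -0.59 (-0.85), RPL36A at -0.58 (-0.84), RPS10 at -0.55 (-0.81) and RPS15 at -0.34 (-0.60, and not past the threshold after quantile normalization). By sample names RPS14 (-0.40) and RPS15 (-0.21) missed the threshold. The large subunit had 10 higher and 1 lower as deposited and the small subunit 3 higher and 5 lower, with medians of 0.17 and -0.07. After centring the medians were -0.08 and -0.32.

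With the KDM4B hairpin the share of members that fell was close to that of all genes. In Rh30 3 of 52 (5.77%) fell and 0 rose (limma, with 5 at an unadjusted p under 0.05). Over all genes 6.31% fell and 5.26% rose. The median was -0.04 against 0.03 over all genes. RPS12 was at 9.51 and 9.75 with the hairpin against 11.36 and 11.12 with the control hairpin, 3.05-fold lower (-1.61, SE 0.12, limma adjusted p = 1.05e-07). In the siRNA, DMSO and QC6352 arrays of Rh30 RPS12 lay between 10.60 and 11.23, so the 2 hairpin arrays were its lowest. RPS26 was at 11.89 and 11.90 against 12.33 and 12.48, 1.42-fold lower (-0.51, SE 0.10, limma adjusted p = 0.0028). RPL7L1 was at 8.46 and 8.44 against controls of which the lower was at 8.98, 1.46-fold lower (-0.54, SE 0.13, limma adjusted p = 0.00755). The groups did not overlap in these 3 genes. RPS12 alone passed when only the 4 arrays were fitted, and RPL7L1 missed the threshold without shControl replicate 1 or either shKDM4B array. QC6352 left RPS26 at 0.01 and RPL7L1 at 0.16 in Rh30, and RPS12 fell there by 0.40 (SE 0.10). The large subunit median, -0.05, was 0.03 without shControl replicate 1. Of the 10 rhabdomyosarcoma markers 4 fell and 1 rose with the hairpin, with summed signals of 13.69 to 13.74 against 13.98 to 14.06, and their part in these changes was not tested.

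The siKDM4C arrays gave 0 members past the threshold (limma, with 8 at an unadjusted p under 0.05), beside 0.192% lower and 0.266% higher of all genes. The 5 members with the smallest p were RPL27 at -0.46, RPS14 at -0.39, RPLP1 at -0.35, RPS10 at -0.33 and RPS19 at -0.34 (lowest limma adjusted p = 0.14). By sample names RPL27 was at -0.50 and RPS14 at -0.41, while RPLP1 and RPS19 were each at 0.092 and RPS10 at -0.070. RPL27 was at 10.20 and 9.86 against 10.52 and 10.45, and RPS19 at 11.71 and 11.07 against 11.67 and 11.79. Replicate 2 was the lower of the 2 arrays in all 5 genes. Its canonical members lay at -0.23 relative to the series mean against -0.01 in replicate 1, and -0.01 and 0.02 in the controls. Without siKDM4C replicate 1 the siKDM4C group is 1 array, assumed to vary like the other groups, and 10 members were then lower past the threshold beside 3.68% of all genes, these 5 among them. Without replicate 2, under the same assumption, 0 passed, with medians of -0.017 in the large and -0.00084 in the small subunit. The title of replicate 2 names a hairpin against KDM4C, its source name the siRNA, and its sample name QC6352 in Rh30.

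Other genes of translation were set beside the members. With QC6352 16.5% of all genes fell and 19.9% rose in Rh30, and 8.8% fell and 10.9% rose in Rh41. With the hairpin 6.31% of all genes fell. Of 16 measured further mRNAs with a TOP motif 14 fell in Rh30 with QC6352, with a median of -0.63, and 8 in Rh41, with a median of -0.33; 0 rose in either. EIF4B, an initiation factor that helps unwind mRNA, fell by 1.45 in Rh30 and 0.53 in Rh41, and EIF3E, a subunit of initiation factor eIF3, by 1.40 and 0.69. The hairpin lowered 5 of the 16, with NAP1L1 at -1.49 and NPM1 at -0.52, and siKDM4C 0. FAU and RPL36AL, which also supply ribosomal proteins and lie outside the symbol rule, were not called in any treatment comparison. Of 74 mitochondrial ribosomal protein genes, which build a separate ribosome, 40 fell and 4 rose in Rh30 with QC6352, led by MRPL58 at -2.82 and MRPL24 at -2.72. In Rh41 14 fell and 3 rose, with the same pair at -1.61 and -1.31.

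Among 14 genes that control TOP translation 6 fell (42.9%) and 2 rose (14.3%) in Rh30 with QC6352, beside 16.5% and 19.9% of all genes. EIF4EBP2, a translation repressor regulated by mTOR, fell by 0.94, and RPS6KB1, an S6 kinase, rose by 0.96. In Rh41 2 fell and 2 rose, each 14.3%, near the 8.8% and 10.9% of all genes. RPS6KB1 was at 0.57 and RPS6KB2 at -0.50 there. Of 13 measured chaperones and importers of ribosomal proteins 5 fell (38.5%) and 2 rose (15.4%) in Rh30, led by LTV1 at -0.86 and GRWD1 at -0.77. In Rh41 3 fell, IPO4 at -0.56 and ZNF277 at -0.50 the furthest. The 5 genes outside the members whose signal, relative to the array median, went most closely with the mean of the canonical members over the 20 arrays were H3C2 (Pearson r 0.964), AAAS (0.962), DTD1 (0.958), H1-4 (0.958) and H4C15 (0.956). Both cell lines and all treatments enter these correlations. Among the members themselves the correlation with the mean of the other canonical genes was lowest for RPL22 (-0.16), RPS12 (-0.14), RPS24 (-0.12) and RPL7L1 (-0.12).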

How the data were processed

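The labels give total RNA on 20 Clariom S arrays (Affymetrix, human). The authors deposited log2 signals, which run from 2.22 to 14.22. GCOS is named in the submitters' processing notes, while the sources used here do not give background correction, summarization or normalization. Of 24351 probe sets, 17709 carry 1 symbol and 6642 none. The probe set with the highest mean stood for a gene, which left 17687 genes. Groups follow the titles, except for siKDM4C replicate 2, which follows its source name.

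All arrays entered 1 fit of 8 group means (lmFit and eBayes of limma 3.58.1, run under R 4.3.3, with 12 residual degrees of freedom), with Benjamini-Hochberg adjustment over all genes and a threshold of 0.05. Fold changes are differences of group means in log2 with their standard errors (SE). The fit was tested on simulated data. Background was the median of 23 control probe sets. The number of arrays limits the precision. Motifs were searched in RefSeq windows.

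Members and lists were chosen with earlier results of these data known. Genes are named by rule: like paralogs and their partners, up to 6 falls and 6 rises of largest change per comparison (the 5 of smallest p where none passed), fixed role groups, and the 2 largest changes per context list. RPL35A and RPL18 in Rh41, RPS6 in Rh41 and in the difference between lines, and the least alike members were named after their values were seen. Replicate numbers were not shown to pair arrays. Alternatives were other scalings, fits, filters and groupings, and leaving out each array.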

Additional observations from a re-analysis of the deposited data

Results flagged for a closer look

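The change with QC6352 differed between Rh41 and Rh30 for 14 members, tested as an interaction in the limma fit, with the Rh41 change the higher in each. The difference was 0.83 for RPS27L, 0.82 for RPL7 and 0.76 for RPL10A (limma adjusted p = 0.000874, 0.000765 and 0.00342). It was 0.63 for RPL24, 0.60 for RPL27, 0.58 for RPL22L1 and 0.57 for RPS6. RPL35A differed by 0.53, RPL21 by 0.48, and RPS14 and RPS15A by 0.47 each. RPS25 and RPS29 differed by 0.42 each, and RPL14 by 0.37 (limma adjusted p = 0.0409). The RPL21 value comes from a probe set with an identifier of another chromosome than the gene's. The DMSO and QC6352 arrays of Rh30 that enter all of these are among those with contradictory labels.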

How the results depend on the processing

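With the replicate block the members called numbered 3, 0, 33, 11, 14 and 23 for the hairpin, siKDM4C, QC6352 in Rh30, QC6352 in Rh41, the difference between lines and DMSO. None of the members with the largest changes, nor the paralogs called, lost its call under it. Same-numbered arrays correlated from -0.21 to 0.26, so the numbers were not shown to pair them. The cause of the changes that follow was not tested.

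By sample names 0 members passed for QC6352 in Rh30 and for the difference between lines. The large and small subunit medians became 0.021 and -0.012 for QC6352 in Rh30 and -0.18 and -0.12 for the difference; the large subunit median became -0.26 for siKDM4C and the small subunit median 0.031 for DMSO. For QC6352 in Rh30 RPL10A was at 0.21, RPL22L1 at 0.17, RPL24 at 0.086, RPS6 at 0.16 and RPS27L at 0.10. The difference was -0.18 for RPL7, -1.07 for RPL10A, -0.67 for RPL24, -0.18 for RPL27 and -0.86 for RPL22L1. For siKDM4C RPLP1 and RPS19 were each at 0.092. RPL22L1 minus RPL22 was -0.53 and RPS27L minus RPS27 -0.46 for siKDM4C, and RPL7L1 minus RPL7 was -0.042 and RPS27L minus RPS27 0.21 for QC6352 in Rh30.

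A fit of the compared arrays alone called 1 member lower for the hairpin, beside 3% of all genes. With a variance trend and robust estimation siKDM4C had 4 members lower, beside 0.859% of all genes, and the difference 22 higher, beside 11.9%. After centring on the median the DMSO medians were -0.082 (large) and -0.32 (small), and after centring on bright other genes -0.054 and -0.30. With quantile normalization RPL22L1 minus RPL22 was -0.00068 for siKDM4C.

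Leaving out each array in turn gave 0 to 10 calls for siKDM4C, where a group of 1 array was assumed to vary like the other groups. The hairpin median of the large subunit ranged from -0.11 to 0.031, that of siKDM4C from -0.19 to -0.017 (large) and -0.21 to -0.00084 (small), that of QC6352 in Rh30 from -0.37 to -0.28 (small) and that of the difference from 0.16 to 0.26 (small). RPL22L1 minus RPL22 ranged from -0.50 to 0.079 for the hairpin and -0.17 to 0.27 for siKDM4C, RPL7L1 minus RPL7 from -0.14 to 0.0030 for QC6352 in Rh41 and RPS27L minus RPS27 from -0.14 to 0.52 for siKDM4C. The alternatives for these pairs were chosen after seeing the data.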
